A study of Oryza sativa with 6 samples.

Results

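Genes for nitrate and ammonium uptake and for the first steps of nitrate reduction were followed in rice roots exposed to mercury (Hg). They were 9 loci of the 29690 named on the array, read by 15 of its 41908 locus probes, and were chosen by locus: 3 NRT2 genes, the NAR2.1 gene, 3 AMT1 genes, 1 nitrate reductase and 1 nitrite reductase gene. No locus lacked a probe. Of the 9 loci, 5 had 1 probe, 2 had 2 probes and 2 had 3 probes.

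Seedlings of the cultivar TN-67, 6 days old, were placed in Hg or in water (control). The short exposure was RNA pooled from 1 h and 3 h, and the long exposure was 24 h. Each exposure was measured on 3 two-dye Agilent arrays, 1 per biological replicate, with RNA of Hg roots always labeled with Cy5 and that of control roots with Cy3. The dose is given as 25 mM in the sample labels and as 25 µM in the study's methods, and the tissue as roots in the labels and root tips in the methods. Because the dyes were not swapped, a dye bias of a probe enters all of its ratios in the same direction. Control RNA was hybridized on every array, but whether the controls of both exposures came from the same plants is not stated. RNA of whole tissue was measured, so fewer cells of a type and less RNA per cell cannot be told apart.

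Plant roots take up nitrate at low external supply through NRT2 proteins, proton-coupled carriers of the plasma membrane that work together with a small partner protein, NAR2. Ammonium enters through AMT1 proteins, the high-affinity ammonium transporters. Inside the cell, nitrate reductase turns nitrate into nitrite in the cytosol, and nitrite reductase turns nitrite into ammonium in the plastid. Glutamine synthetase and glutamate synthase then build ammonium into amino acids. In paddy soil much of the inorganic nitrogen is ammonium, and rice roots use both forms.

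Between 29106 and 34927 spots per array were well above background in the Hg channel and between 28674 and 34265 in the control channel. The short-exposure arrays lay on 2 slides (replicate 1 on one, replicates 2 and 3 on the other) and the long-exposure arrays on 1 slide of their own, so slide and exposure time cannot be told apart in any comparison between exposures. All 3 loci fixed as root markers were well above background in both channels on all 6 arrays. Of 5 loci fixed as leaf markers, 4 had processed signals of at most 108 in either channel, while Os03g0592500 had 2102 to 3531 in the Hg channel and 2053 to 2955 in the control channel. Os01g0600900, another of them, was well above background on 5 of 6 arrays in the Hg channel (at most 73.7) and on 0 in the control channel (at most 11.7). The part of these loci in the results was not tested.

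The processed signal is the background-corrected, dye-normalized intensity of 1 channel on a linear scale. It was not scaled between arrays, and its median over all spots of the control channel was 202 to 301 on the short-exposure arrays and 336 to 405 on the 24 h arrays. The log2 ratio is that of Hg over control on the same array, so 1 is a 2-fold higher and -1 a 2-fold lower level in Hg roots. A gene rose or fell where the adjusted p of limma (Benjamini-Hochberg over all genes tested) was under 0.05 and the change at least 2-fold.

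After the short exposure, 0 of the 7 uptake and reduction genes tested rose and 0 fell, where 11.6% of 21816 genes tested rose and 8.10% fell. After 24 h of Hg, 2 of the 7 rose, the NAR2.1 gene Os02g0595900 and the AMT1 gene Os02g0620600, and 0 fell, where 9.02% of 21842 genes rose and 6.02% fell. For 6 of the 7 tested loci the log2 ratio was negative at the short and positive at the long exposure, and the AMT1 gene Os04g0509600 had the opposite signs. Under another scaling a small early value turned positive for 2 of these loci. Os01g0357100 was at 0.0041 with normexp and loess, and Os02g0620500 was at 0.0324 with median-centred arrays. The median of all genes was itself negative early, at -0.13, and -0.06 at 24 h. The share of all genes with the same signs was not counted. Early, Os01g0357100 lay at percentile 46.3 of all genes and Os02g0620500 at percentile 52.5. Of the 7 early values, 4 did not pass the test whatever the fold. Loci that never reached a processed signal of 100 in any channel were not tested, which left out the NRT2 gene Os02g0112100 and the nitrate reductase gene Os08g0468100.

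**Figure D1:**
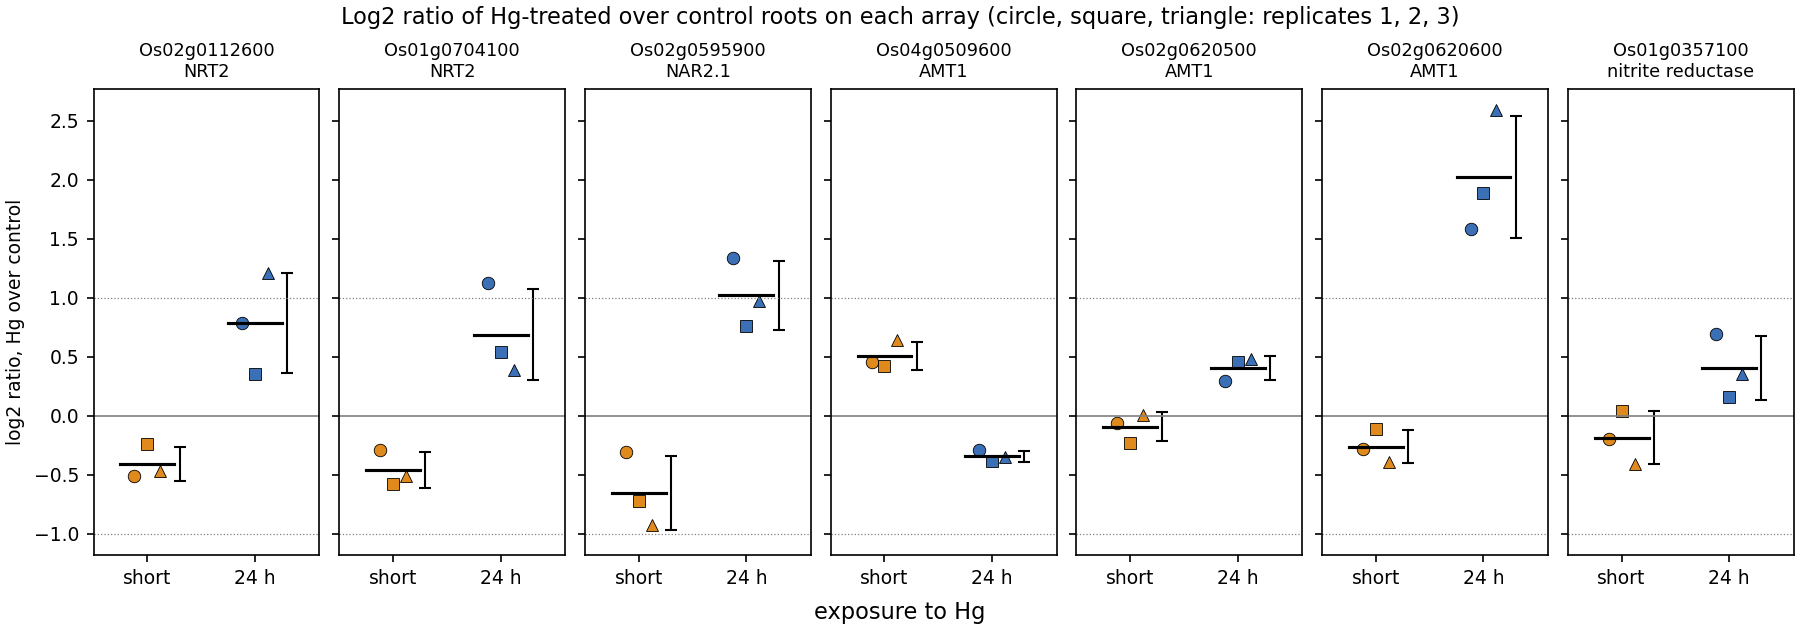
Log2 ratio of Hg over control (y axis) on each array for the 7 tested loci, at the short exposure and at 24 h (x axis). Points are replicates, bars the mean and the SD of 3 arrays, and dotted lines mark 2-fold. Only Os04g0509600 lies above 0 on all short-exposure arrays and below 0 on all 24 h arrays. At 24 h Os02g0620600 reaches 1.59 to 2.59.

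The NRT2 genes are described first. Os02g0112600 had log2 ratios of -0.51, -0.24 and -0.47 on the short-exposure arrays and of 0.79, 0.36 and 1.21 on the 24 h arrays. The ratio was thus below 0 on all 3 short-exposure arrays and above 0 on all 3 long-exposure arrays. Its processed signal after 24 h was 734, 372 and 529 in Hg roots against 426, 290 and 229 in control roots. After the short exposure it was 188, 260 and 290 in Hg roots against 268, 308 and 402 in control roots. The control signals of both exposures overlapped and the Hg signals did not, but signals were not scaled between arrays. The median of the Hg channel over all spots was 207 to 309 on the short-exposure arrays and 336 to 410 on the 24 h arrays. In the limma fit the log2 ratio was -0.41 (SE 0.16, adjusted p = 0.0531) at the short exposure and 0.78 (SE 0.16, adjusted p = 0.00518) at 24 h, under 2-fold both times.

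Os01g0704100, the other detected NRT2 gene, had a probe pair. On the brighter probe (transcript AK109776) the log2 ratios were -0.29, -0.58 and -0.52 at the short exposure and 1.12, 0.54 and 0.39 at 24 h. The processed signals of that probe at 24 h were 2279, 2288 and 2103 in Hg roots against 1046, 1571 and 1605 in control roots. All Hg values were above all control values at 24 h. At the short exposure the signals were 2023, 1373 and 916 in Hg roots and 2474, 2056 and 1309 in control roots, ranges that overlap although each Hg value was below the control value of its own array. The fitted log2 ratio was -0.46 (SE 0.15, adjusted p = 0.0279, limma) at the short exposure and 0.69 (SE 0.15, adjusted p = 0.0068) at 24 h. The level was 1.61-fold higher in Hg roots at 24 h. The early value did not pass the test in several other fits: it was -0.22 (adjusted p = 0.149) under normexp with loess and -0.34 (adjusted p = 0.0765) with median-centred arrays, and the adjusted p was 0.117 and 0.103 without replicates 2 and 3 of the short-exposure arrays. The second probe (AK072215) gave -0.82 and 0.62 on the log2 scale, further below 0 at the short exposure and close to the first probe at 24 h. In a limma fit with 1 row per probe its adjusted p was 0.00344 early and 0.0121 at 24 h. The mean of both probes was -0.64 early (adjusted p = 0.00772).

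For the remaining NRT2 gene, Os02g0112100, the processed signals were between 5.24 and 11.6 in Hg roots and between 4.52 and 11 in control roots, and were not well above background in either channel on any array. The software set its ratio to exactly 0 on 5 of 6 arrays. Only a bound on its level is given by these arrays, and no fold is reported. No probe sequence was available, so it was not checked how far the NRT2 probes bind transcripts of related copies.

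The NAR2.1 gene Os02g0595900, which encodes the partner protein of the NRT2 carriers, had log2 ratios of -0.31, -0.73 and -0.93 at the short exposure. At 24 h they were 1.34, 0.76 and 0.97. At 24 h the processed signals were 2286, 2225 and 2333 in Hg roots against 905, 1315 and 1191 in control roots, and the groups did not overlap. At the short exposure they were 551, 592 and 522 in Hg roots against 684, 980 and 993 in control roots, again without overlap but with Hg below control. The gene rose 2.03-fold at 24 h (log2 ratio 1.02, SE 0.15, 95% interval 0.66 to 1.38, adjusted p = 0.00158, limma). At the short exposure the log2 ratio was -0.66 (SE 0.15, adjusted p = 0.00802), lower in Hg roots but not by 2-fold. Without replicate 1 of the 24 h arrays the long-exposure ratio was 0.86, which is under the 2-fold limit.

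**Figure D2:**
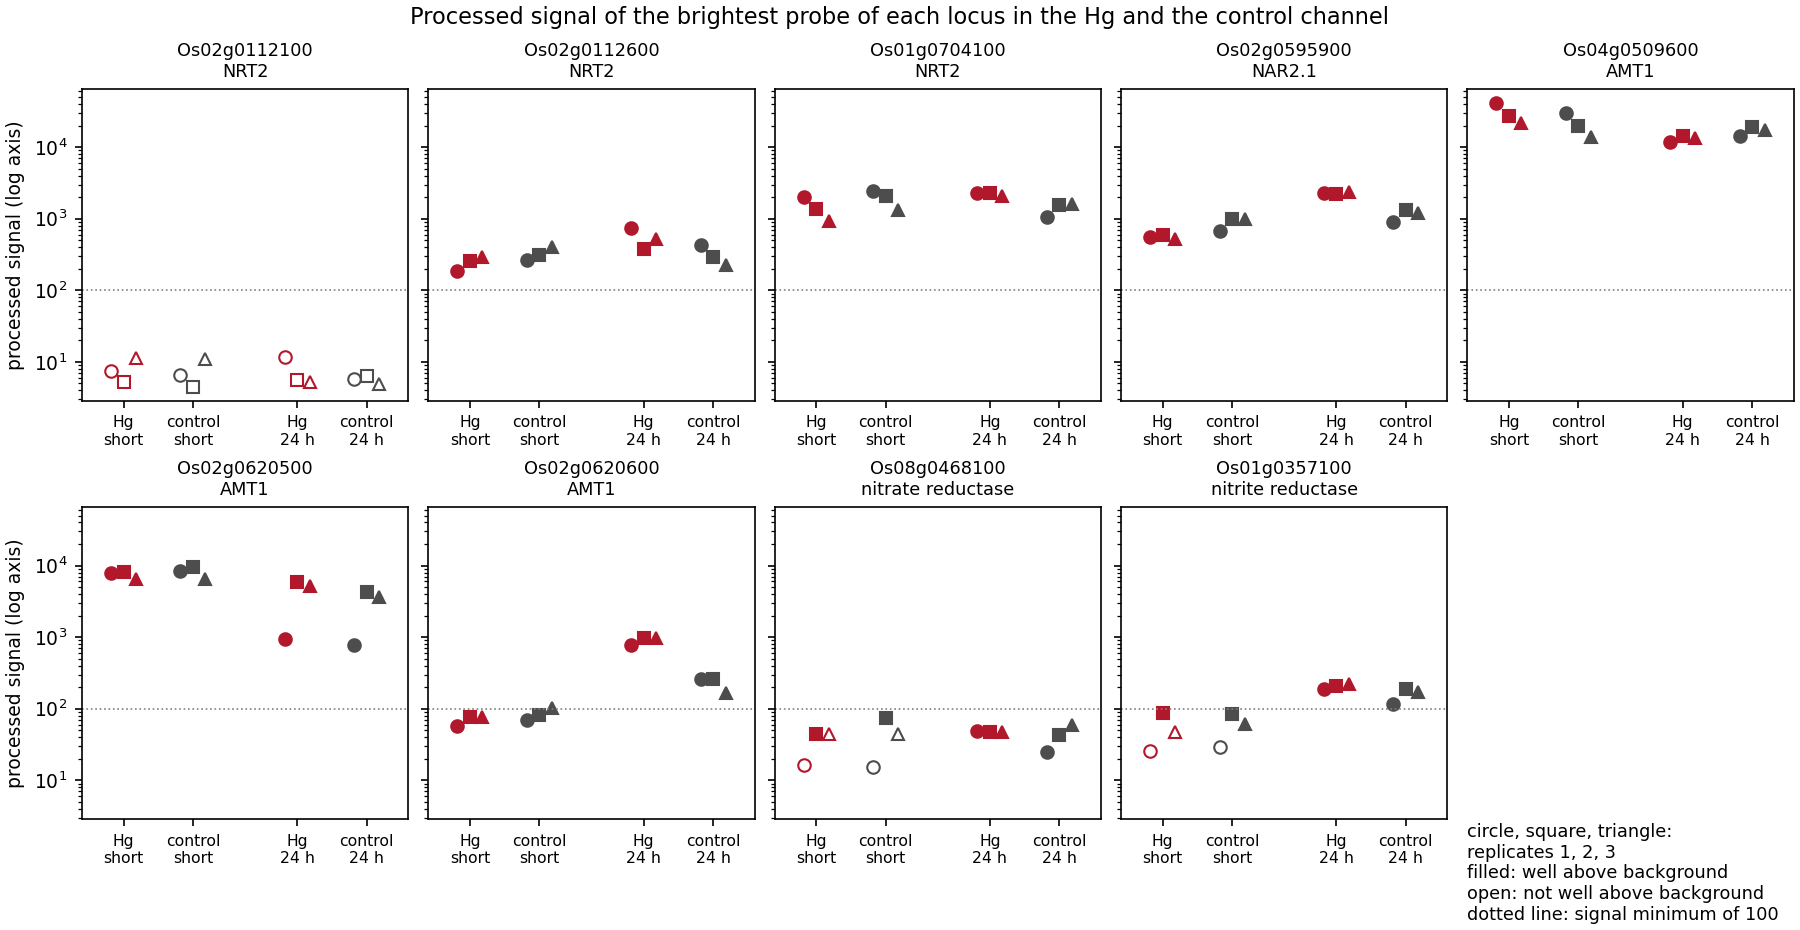
Processed signal (y axis, log scale) of the brightest probe of each of the 9 loci in the Hg and the control channel at each exposure (x axis), 1 point per array. Open points were not well above background. Os02g0112100 stays at 11.6 or lower throughout, and the Hg signals of Os02g0595900 and Os02g0620600 at 24 h lie above the control signals of the same arrays.

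Of the AMT1 genes, Os02g0620600 (described in the study's tables as an Rh-like ammonium transporter family protein) gave the largest ratio among the 7 tested loci. Its processed signals at 24 h were 769, 980 and 984 in Hg roots against 256, 264 and 163 in control roots, with no overlap. At the short exposure it was dim, at 56.6, 76.3 and 77.1 in Hg roots against 68.9, 82.4 and 101 in control roots, although well above background on all arrays in both channels. Control signals of this probe were thus higher on the 24 h arrays than on the short-exposure arrays, and the Hg signals at 24 h were higher still. Signals were not scaled between arrays, and the control-channel median over all spots was 202 to 301 early and 336 to 405 at 24 h. Slide and exposure time also cannot be told apart in this comparison. The log2 ratios were -0.28, -0.11 and -0.39 at the short exposure and 1.59, 1.89 and 2.59 at 24 h. The gene rose 4.06-fold at 24 h (log2 ratio 2.02, SE 0.18, 95% interval 1.59 to 2.46, adjusted p = 0.000314, limma), and its early ratio of -0.26 (SE 0.18, adjusted p = 0.235) did not pass the test.

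Os02g0620500, annotated in the study's tables as a high affinity ammonium transporter, is the next locus by number on the same chromosome. Its log2 ratios were -0.06, -0.23 and 0.01 at the short exposure and 0.29, 0.45 and 0.48 at 24 h. Ratios at the short exposure lay on both sides of 0, while all 3 at 24 h were above 0. The fitted values were -0.09 (SE 0.08, adjusted p = 0.313, limma) and 0.41 (SE 0.08, adjusted p = 0.00437), so the level at 24 h was 1.33-fold higher in Hg roots. Replicate 1 at 24 h had processed signals of 955 in the Hg channel and 780 in the control channel. The other two 24 h arrays had 5911 and 5138 in the Hg channel and 4323 and 3694 in the control channel. The low replicate was low in both channels alike, and without it the 24 h ratio was 0.46 (adjusted p = 0.00881).

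Os04g0509600, annotated as ammonium transporter 1 member 1, was the only one of the 7 with higher levels early and lower levels late. On its brightest probe (AK073718) the log2 ratios were 0.45, 0.42 and 0.64 at the short exposure and -0.29, -0.39 and -0.36 at 24 h. The processed signals at the short exposure were 41118, 26840 and 21575 in Hg roots against 30024, 20007 and 13827 in control roots. At 24 h they were 11727, 14543 and 13548 in Hg roots against 14355, 18996 and 17331 in control roots. The ranges overlapped at both exposures, while within each array the order of Hg and control was the same for all replicates of an exposure. The fit gave 0.51 (SE 0.07, adjusted p = 0.00105, limma) at the short exposure, a 1.42-fold higher level, and -0.34 (SE 0.07, adjusted p = 0.0061) at 24 h, a 1.27-fold lower level. Its other probes gave 0.54 and 0.55 at the short exposure and -0.30 and -0.31 at 24 h.

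**Figure D3:**
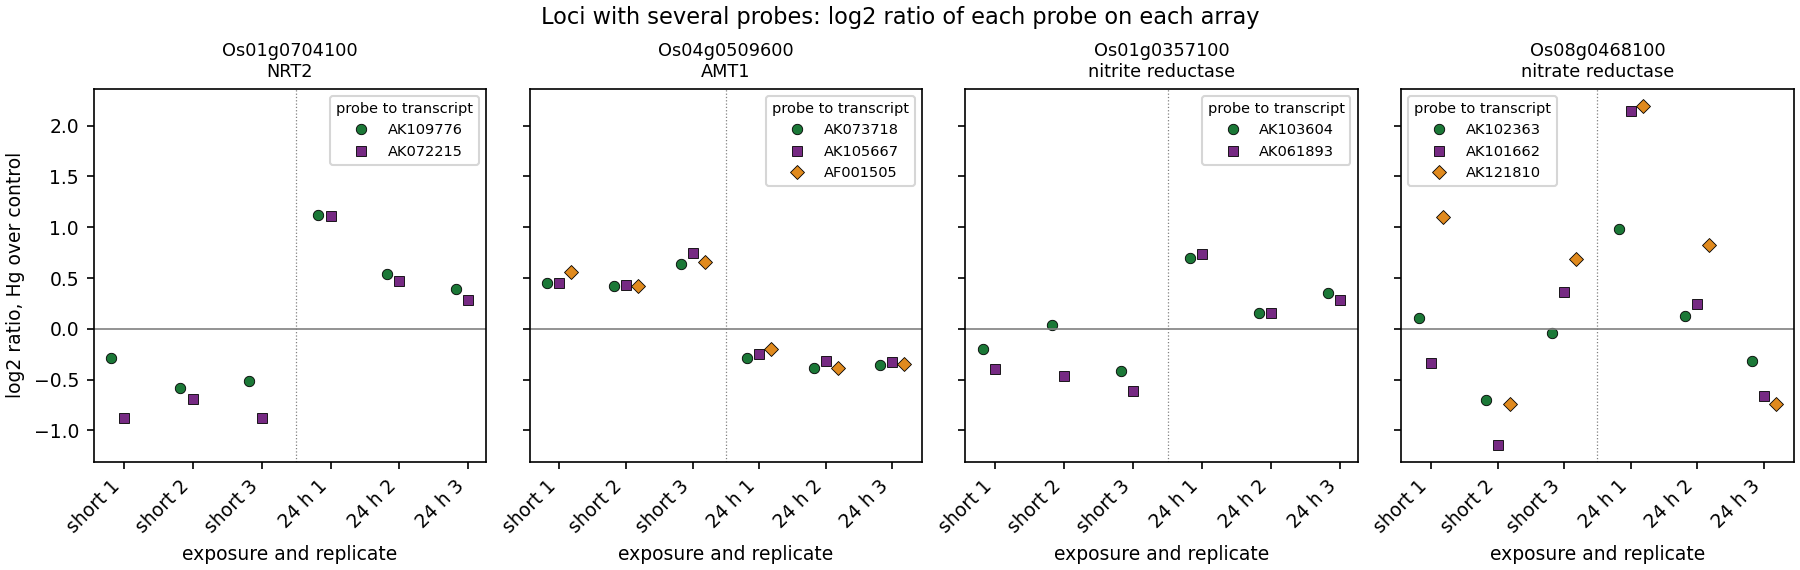
Log2 ratio of Hg over control (y axis) on each array (x axis) for the 4 loci with several probes, with 1 symbol per probe. The 3 probes of Os04g0509600 lie close together on every array, the 2 probes of Os01g0704100 and of Os01g0357100 lie apart at the short exposure, and the 3 dim probes of Os08g0468100 change sign between replicates.

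The reductase genes were dim. The nitrite reductase gene Os01g0357100, whose enzyme makes ammonium from nitrite, had processed signals at 24 h of 186, 209 and 218 in Hg roots against 115, 187 and 170 in control roots. At the short exposure its signals were 25.2, 86.7 and 46.6 in Hg roots, above background on 1 of 3 arrays, and 28.9, 84.4 and 62 in control roots, above background on 2 of 3. The log2 ratios were -0.20, 0.04 and -0.41 at the short exposure and 0.70, 0.16 and 0.36 at 24 h. The fitted ratio at 24 h was 0.40 (SE 0.13, adjusted p = 0.0303, limma) and the early one -0.19 (SE 0.13, adjusted p = 0.224). The 24 h value, 1.32-fold, did not pass the test without some single arrays. Without replicate 1 of the 24 h arrays it was 0.26 (adjusted p = 0.138) and without replicate 3 it was 0.43 (adjusted p = 0.0883). Without replicate 2 it was 0.53 (adjusted p = 0.0327). Its second probe (AK061893) gave 0.39 at 24 h. Early, that probe was well above background on 1 of 3 arrays in the Hg channel and on 3 of 3 in the control channel, and its ratios were -0.39, -0.46 and -0.61.

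The nitrate reductase gene Os08g0468100, whose enzyme turns nitrate into nitrite, had no processed signal over 73.1 on any of its 3 probes. On the brightest of them (AK102363) the log2 ratios were 0.11, -0.70 and -0.04 at the short exposure and 0.98, 0.13 and -0.31 at 24 h. Both exposures thus had ratios on either side of 0. Tested without the signal minimum, this locus gave -0.21 (adjusted p = 0.601, limma) and 0.26 (adjusted p = 0.499).

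At an adjusted p under 0.05 (limma) whatever the fold, 1 of the 7 tested loci was higher and 2 were lower at the short exposure, against 27.6% and 40.9% of all genes. At 24 h 6 were higher and 1 was lower, against 28.6% and 35.2% of all genes. Of the 6, Os01g0357100 reached the signal minimum on the 24 h arrays only, its early signals being at most 87.4 on either probe. Os02g0620600 reached it early in 1 control signal of 101. How many of all genes were tested because of their 24 h signals was not counted. The median log2 ratio of the 7 was -0.26 at the short exposure and 0.69 at 24 h, beside medians over all genes tested of -0.13 and -0.06. The other 2 loci are not in these counts, since they did not reach the signal minimum.

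The change of the Hg response with exposure time was tested as the difference of the log2 ratios, long minus short, in the same fit. For 4 of the 7 loci it was at least 2-fold and positive: 2.29 for Os02g0620600 (SE 0.26, adjusted p = 0.0010), 1.68 for Os02g0595900 (SE 0.21, adjusted p = 0.00144), 1.19 for Os02g0112600 (SE 0.22, adjusted p = 0.00556) and 1.15 for Os01g0704100 (SE 0.21, adjusted p = 0.00503, limma). Among 21815 genes, 9.23% had such a positive difference and 10.1% a negative one. The difference of Os02g0620500 was smaller, at 0.50 (SE 0.11, adjusted p = 0.0104). That of Os01g0357100 was 0.59 (SE 0.18, adjusted p = 0.0334) and is uncertain, since its early ratios come partly from signals not well above background. It was 0.29 under normexp with loess. Without replicate 1 or 3 of the short-exposure arrays the adjusted p was 0.0751 or 0.0949, and without replicate 1 or 3 of the 24 h arrays it was 0.0771 or 0.0765. The difference of Os04g0509600 was -0.85 (SE 0.10, adjusted p = 0.00119), opposite in sign to those of the other 6. Whatever the fold, 6 of the 7 had a positive and 1 a negative difference at an adjusted p under 0.05, against 26.2% and 23.9% of all genes. Without Os01g0357100, whose call was lost in the fits above, 5 were positive. The median difference of the 7 was 1.15, beside 0.04 over all genes. Both NRT2 genes lost the 2-fold call under normexp background correction with loess, at 0.94 each. Os01g0704100 also lost it without replicate 1 of the 24 h arrays, at 0.93, and Os02g0112600 without replicate 3, at 0.98.

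**Figure D4:**
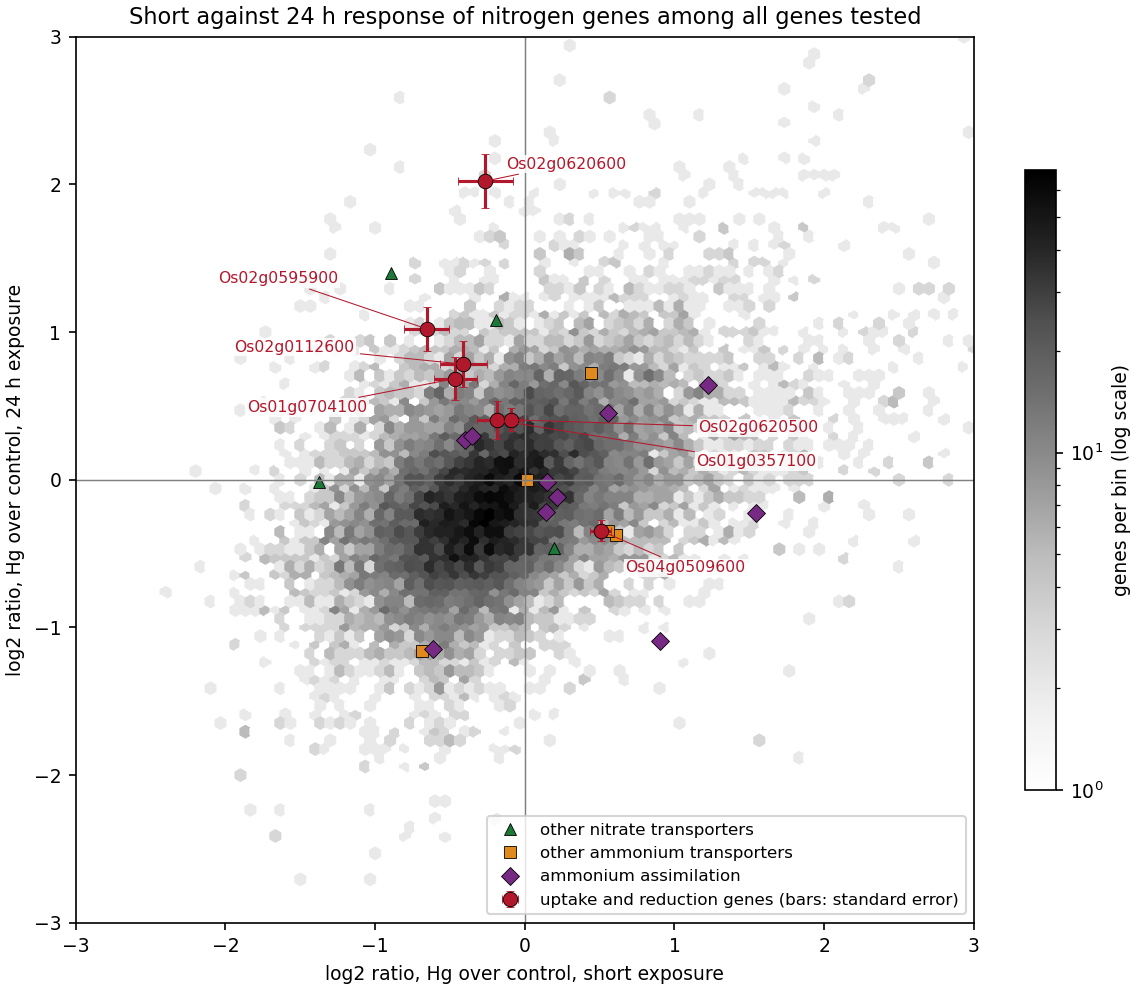
Fitted log2 ratio of Hg over control at 24 h (y axis) against that at the short exposure (x axis). Grey bins count all genes tested, with 672 genes beyond the axes not shown, red points are the 7 tested uptake and reduction genes with standard errors, and other symbols are the related lists. Of the red points, 6 lie left of 0 and above 0, and Os04g0509600 lies right of 0 and below 0. The early values of Os01g0357100 and Os02g0620500, near 0, turn positive under another scaling.

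Related genes were taken from lists. Of 7 further loci annotated as nitrate transporters in the study's tables, all were on the array and 4 were tested. Early, 1 of the 4 fell and 0 rose, and at 24 h 2 rose and 0 fell, with medians of -0.54 and 0.53. One of the 4, Os03g0687000, had an early ratio on 1 array only. The one that fell was Os03g0235900, with early log2 ratios of -1.22, -1.24 and -1.67 and a fitted value of -1.38 (adjusted p = 0.000111, limma), while its ratio at 24 h was -0.02. Those that rose at 24 h were Os10g0554200, with ratios of 0.96, 1.71 and 1.54 (fitted 1.40, adjusted p = 0.000569), and Os08g0155400, with ratios of 0.70, 1.26 and 1.28 (fitted 1.08, adjusted p = 0.000969). Early, Os10g0554200 was at -0.90 (adjusted p = 0.00237), lower in Hg roots by less than 2-fold, and Os08g0155400 at -0.19. For these 3 loci the difference between exposures was at least 2-fold and positive, the largest being 2.30 for Os10g0554200.

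Of 9 further loci listed as ammonium transporters, 6 were on the array and 5 were tested. Early, 0 rose or fell (median 0.44), and at 24 h 1 fell and 0 rose (median -0.35). The one that fell, Os02g0550800, had ratios of -1.44, -1.22 and -0.82 at 24 h (fitted -1.16, adjusted p = 0.000506, limma), beside -0.69 early. Os05g0468700, named here after its values were seen, had the signs of Os04g0509600, at 0.55 early (adjusted p = 0.000724) and -0.35 at 24 h (adjusted p = 0.006), with a difference of -0.90 (adjusted p = 0.000992).

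The other 4 lists held loci chosen from general knowledge, which neither the array files nor the reference gene table name. Of 2 further NRT2 and NAR2 loci 1 was on the array, Os04g0477500, at -0.92 early (adjusted p = 0.000596, limma) and -0.08 at 24 h, and it was not called. Of 3 further reductase loci 2 were tested, and 0 rose or fell at either exposure (medians -0.27 and 0.46). Of 12 loci listed for ammonium assimilation, 10 were tested. Early, 2 rose and 0 fell (median 0.18), and at 24 h 0 rose and 2 fell (median -0.07). Those that rose were Os01g0681900, annotated in the study's tables as NADH-glutamate synthase, at 1.55 (adjusted p = 0.000117, on 2 arrays because its spot on replicate 1 was an outlier), and Os04g0543900 at 1.22 (adjusted p = 0.000222). Those that fell at 24 h were Os04g0659100 at -1.15 (adjusted p = 0.000344) and Os03g0712800 at -1.09 (adjusted p = 0.000612). Os03g0712800 was at 0.91 early, so that its response also changed sign, with a difference of -2.00. A single locus listed as a nitrate regulator, Os02g0325600, rose early with ratios of 2.25, 1.52 and 2.22 (fitted 2.00, adjusted p = 9.8e-05) and was at 0.67 at 24 h.

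Likeness of pattern was measured as the Euclidean distance of the 6 log2 ratios, over 21037 genes with a ratio on every array. The loci nearest to the NAR2.1 gene Os02g0595900 were Os02g0769100 (distance 0.52), Os01g0381900 (0.52) and Os08g0176200 (0.53). Among the other 6 tested uptake and reduction genes, the NRT2 gene Os01g0704100 was closest to it, at 0.79, and Os04g0509600 farthest, at 3.18. The loci nearest to Os02g0620600 were Os07g0589000 (0.47), Os07g0142000 (0.47) and Os11g0671000 (0.54), none of which are in the lists. Its own neighbour by locus number, Os02g0620500, was at 2.91.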

How the data were processed

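Roots of Hg-treated and control seedlings were compared on 6 two-dye arrays, 3 per exposure, grouped by their labels. Scanner output for every array and a series table of log2 values were deposited. The deposited intensity values of each channel are processed signals of Agilent Feature Extraction (version 10.7.1.1), background-subtracted and dye-normalized per the file headers. Ratios of Hg over control are deposited as log10 values of that software and were multiplied here by 3.32, the log2 of 10. The deposited log2 table matches the ratio of Hg to control processed signals on each array (100% of values within 0.01, among probes with a single spot and no outlier). The software's flags for outliers and for signals well above background were used as deposited, per the file headers.

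Control spots and outliers were dropped, and replicate spots were averaged per probe. Following the study's methods, a probe needed a processed signal of at least 100 in 1 channel of 1 array, which left 11 of the 15 probes of the 9 loci and 31325 of 41908 probes, or 21843 genes. The brightest probe stood for a gene. One model with a coefficient per exposure was fitted to all genes with limma (3.58.1) in R (4.3.3), with 4 residual degrees of freedom, and p-values were Benjamini-Hochberg adjusted over all genes tested. The methods' t-test, normexp with loess, median centring, the deposited table, other filters, the slide and the replicate number as blocks and leaving out each array were alternatives. Normexp (offset 50) was run on median spot signals, since the files hold no mean signals. Precision is limited by the 3 arrays per exposure. The loci, lists and tests were chosen with earlier results of these data known. All 9 loci were named, as were list loci that rose or fell at either exposure, and the 3 loci nearest in pattern to Os02g0595900 and Os02g0620600. The reference gene table matched 0 of the loci by identifier, so descriptions come from the study's tables.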

Additional observations from a re-analysis of the deposited data

Results flagged for a closer look

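For the 7 tested uptake and reduction genes, the difference between the exposures (long minus short log2 ratio) passed the test at an adjusted p under 0.05 in the limma fit of all 6 arrays. By the same test, 26.2% of 21815 genes had a positive and 23.9% a negative difference. The difference was 2.29 for Os02g0620600, 1.68 for Os02g0595900, 1.19 for Os02g0112600, 1.15 for Os01g0704100, 0.59 for Os01g0357100 and 0.50 for Os02g0620500. It was -0.85 for Os04g0509600. Os01g0357100 reached the signal minimum on the 24 h arrays only. Its value did not pass without the signal minimum (adjusted p = 0.0643), nor on leaving out any of 4 single arrays. Slide and exposure time cannot be told apart here.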

How the results depend on the processing

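Of 350 alternative values for single loci, 330 kept their direction and their side of the threshold (adjusted p and 2-fold together). Many of the 350 repeat the main ratio, so they are not independent checks. Leaving out an array of 1 exposure leaves the ratio of the other as it was, and keeping outlier spots changed no ratio of these loci. Another 11 passed only with no fold limit, a setting that drops the 2-fold part and reuses the main fit. Of the others, 7 lost the threshold and 2 changed sign. Those that changed sign were both early values near 0: Os01g0357100 at 0.0041 under normexp with loess, and Os02g0620500 at 0.0324 with arrays centred on their median. With no fold limit, 1 locus was higher and 2 were lower early, against 27.6% and 40.9% of all genes. At 24 h 6 were higher and 1 lower, against 28.6% and 35.2%. Os01g0357100, 1 of those 6, reached the signal minimum on the 24 h arrays only. At that setting 6 had a higher and 1 a lower difference, against 26.2% and 23.9% of all genes. The methods' t-test called 0 higher at 24 h, with an adjusted p of 0.0568 for Os02g0620600 and 0.0625 for Os02g0595900, while the adjusted p of the 7 loci lay between 0.0424 and 0.169 at 24 h and between 0.0605 and 0.371 early. It called 910 genes higher and 809 lower over the whole array, against 1971 and 1315 with limma. Early it called 939 and 511, against 2530 and 1767. Normexp with loess left 2 loci with a higher difference, Os02g0620600 and Os02g0595900, where 5.24% of all genes had one. Leaving out 1 array at a time gave 1 to 2 loci that rose at 24 h and 3 to 4 with a higher difference. Over all genes 1749 to 2177 rose at 24 h and 1832 to 2109 had a higher difference. Early, 0 loci were called in those fits, where 2364 to 2632 of all genes rose and 1520 to 1980 fell. Of the genes called early, 58.9% were higher, against 82.5% under normexp with loess and 69.0% after median centring. At 24 h these shares were 60.0%, 72.5% and 65.7%, and for the difference 47.7%, 39.9% and 43.3%. Normexp with loess moved the early median of all genes from -0.13 to 0.00. Whether the replicate numbers pair the exposures is not stated. Same-numbered arrays showed no positive link beyond 0.02 (correlations of deviations -0.23, 0.02 and -0.18). With the number as a block 4 loci had a higher and 0 a lower difference, with 1939 and 2158 among all genes. The block took Os01g0357100 to an adjusted p of 0.0715 and changed no other call among the 7 loci. Slide as a random block changed none of the calls. Each slide held arrays of a single exposure, so that fit cannot tell a slide effect from exposure time. Without the signal minimum the adjusted p of Os01g0704100 was 0.0594 early, and that of Os01g0357100 was 0.0568 at 24 h. Os02g0112100 gave only a bound, and Os08g0468100 stayed under a signal of 100.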
